A study of Mus musculus with 14 samples.

Results

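Ctns encodes cystinosin, the transporter that exports cystine from the lysosome, and this comparison asks which transcripts differ between mouse embryonic fibroblasts (MEFs) given a short hairpin against CTNS and untreated MEFs. It rests on 4 of the 14 libraries of the series: 2 CTNS knockdown libraries and 2 untreated libraries of the group labelled NT2. All groups are labelled as wild-type MEF cells. NT2 had no treatment, the knockdown group was transfected with sh-CTNS, a rescue group was transfected with sh-CTNS together with a CTNS plasmid, and another group received cysteamine, a drug that empties lysosomes of cystine. Each of these 4 groups has 2 libraries, and the other 3 groups are a second untreated group (NT), cells starved of cysteine and cells starved of all amino acids. Polyadenylated RNA was selected with oligo(dT), fragments of 50 to 100 nt were sequenced, and the deposited counts cover the same 1399 transcripts in every library, each from a different gene, 1385 of them with a gene symbol.

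Cystine is the oxidised, paired form of cysteine. It is made when proteins are broken down inside the lysosome, and cystinosin carries it out. Loss of cystinosin traps cystine in the lysosome and, in patients, causes cystinosis, a storage disease that damages the kidney first. Fibroblasts lay down collagen and fibronectin, and the same cells rely on chaperones, autophagy receptors and translation factors to handle protein made and broken down.

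Both untreated libraries held more counts (165747 and 132998) than the knockdown libraries (98481 and 79630). Counts within a pair differed by more than sampling noise, with a chi-square per degree of freedom of 1.58 for NT2 and 1.69 for the knockdown. Ctns is not among the listed transcripts, so the extent of the knockdown was not analysed here. The labels name no control hairpin and no transfection of NT2, so the loss of Ctns, the hairpin and the transfection cannot be told apart. Whether the 2 libraries of a group are separate cultures is not stated. The p-values rest on the spread within the pairs of the 4 groups fitted together, moderated across transcripts. That spread may be technical. One set of 350 transcripts, called here the high-in-NT transcripts, was defined from the other untreated group (NT) and the cysteamine group alone, as those whose ratio of NT to cysteamine was more than 2 times the median ratio. These transcripts took 11.9% and 11.7% of the counts in NT2 and 32.3% and 31.9% in the knockdown, against 17.5% and 16.4% with cysteamine and 41.5% and 39.3% in the rescue. Their part in the results below was not tested except by the fits without them.

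Levels are given as CPM, the usual depth-normalised unit of read counts, after TMM scaling, for replicate 1 and then replicate 2, and changes as log2 fold changes ± SE (n = 2 libraries a side). A transcript is said to have risen or fallen where edgeR's quasi-likelihood test, fitted over the 8 libraries of the 4 groups, gave a Benjamini-Hochberg adjusted p below 0.05 over all 1399 transcripts. The test is two-sided. The SE is the size of the log2 fold change divided by the square root of the test's F, so it too draws on all 8 libraries and on other transcripts.

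By this rule 568 transcripts changed, 40.6% of those tested: 276 rose (19.7%) and 292 fell (20.9%). The 2 knockdown libraries both lay above the 2 NT2 libraries for 507 transcripts (36.2%) and below for 520 (37.2%). The median log2 fold change of all transcripts was 0.004. Among the high-in-NT transcripts 172 of 350 rose (49.1%) and 17 fell (4.86%), with a median of 1.09. Among the other 1049 transcripts 104 rose (9.91%) and 275 fell (26.2%), with a median of -0.17. Scaling on those other transcripts alone shifted the median of all transcripts to 0.19 and split the 581 calls into 369 higher and 212 lower, so that 63.5% of calls were higher against 48.6% in the scaling used. DESeq2 called 318 transcripts. With NT and NT2 pooled as the control 45 were called, and of 121 called genes followed through the alternatives 100 lost their call. The NT libraries were shallow, at 33990 and 25697 counts, and differed from each other. Their Spearman correlation was 0.556 against 0.976 for NT2, and their chi-square per degree of freedom was 7.41. Luc7l2, Pigl and Pglyrp3 took 36.0% and 54.5% of NT counts. The part of this in the lost calls was not tested.

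Windows upstream of 2 genes that changed are shown because these genes lead groups described below. Hsph1 encodes a heat shock chaperone that rose, and Col1a2 encodes a chain of type I collagen with the largest fall of the matrix genes. Each window begins 250 bases before the annotated start and is printed only until 30 bases of annotated exon are included, so that the last 10 bases before the start are left off for Hsph1 and the last 97 for Col1a2. Both windows are from RefSeq on GRCm38.p6 and run 5′ to 3′ on the strand of the gene. The Hsph1 window lies on the minus strand of chromosome 5 (chr5:149636347-149636586), and capitals mark its match to the inverted heat shock pair TTCNNGAA, which begins 33 bases before the annotated start.
Hsph1: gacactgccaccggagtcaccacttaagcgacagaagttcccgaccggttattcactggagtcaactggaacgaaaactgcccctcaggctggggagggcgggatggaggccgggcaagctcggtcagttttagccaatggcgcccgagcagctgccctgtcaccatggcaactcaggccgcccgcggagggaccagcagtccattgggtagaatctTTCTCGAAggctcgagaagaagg
The Col1a2 window lies on the plus strand of chromosome 6 (chr6:4505368-4505520), and capitals mark a CCAAT box that begins 109 bases before the annotated start.
Col1a2: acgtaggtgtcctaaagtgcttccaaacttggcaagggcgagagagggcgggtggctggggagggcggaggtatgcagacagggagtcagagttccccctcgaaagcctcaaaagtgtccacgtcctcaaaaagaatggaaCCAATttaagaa
Both strands were searched in the 250 bases before the start. GAANNTTC or TTCNNGAA was present in 3 of 8 heat shock chaperone genes with a window and in 12.9% of 27025 genes with one. CCAAT was present in 9 of 24 matrix genes with a window, or 37.5%, and in 34.5% of all. Both marked matches lie within the last 30 printed bases. If the 30 annotated exon bases of each print are its last 30, both matches lie in annotated exon. A match is a description of these letters and not a binding site. No part of these windows was measured in the libraries as a regulatory element.

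Genes of the extracellular matrix had the lowest median change of the 26 gene lists with a measured member. Of 32 collagen and matrix genes measured, 26 fell, 1 rose and 5 did not pass, with a median of -1.26 against 0.004 for all transcripts. The number that fell was 21 to 27 in every alternative run except the pooled NT and NT2 control, where it was 8. Together the 32 transcripts took 9.31% and 8.78% of the counts in NT2 and 2.94% and 3.09% in the knockdown. In bulk RNA, fewer cells of a kind and less RNA per cell cannot be told apart.

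Fibronectin, which fibroblasts assemble into fibrils outside the cell, had the highest level of these transcripts per kilobase in NT2, at 2513 CPM per kb. Fn1 measured 21315 and 20482 CPM in NT2 and 6274 and 6470 CPM in the knockdown, a change of -1.71 ± 0.078 (adjusted p = 3.62e-09). The 2 chains of type I collagen, the main fibre of connective tissue, both fell. Col1a1 went from 11552 and 10244 CPM to 3724 and 3625 CPM (-1.57 ± 0.093), and Col1a2 went from 9338 and 7833 CPM to 1054 and 1212 CPM (-2.93 ± 0.16). Per kilobase of transcript the chains stood close together in NT2, with Col1a1 at 1838 and Col1a2 at 1605 CPM per kb, and in the knockdown they stood at 619.7 and 211.9. Col1a2 is a high-in-NT transcript and Col1a1 is not. The other fibrillar chains Col3a1 (3109 and 2632 to 653 and 532 CPM; -2.27 ± 0.15) and Col5a2 (4921 and 4418 to 853 and 705 CPM; -2.57 ± 0.14) also fell. For all of these genes both knockdown libraries lay below both NT2 libraries.

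Among genes that act on collagen as it is made, Lox and Serpinh1 fell and P4ha1 rose. Lox, the oxidase that crosslinks collagen and elastin, measured 1387 and 1388 CPM in NT2 and 221 and 136 CPM in the knockdown (-2.92 ± 0.18, adjusted p = 6.20e-08). Serpinh1, the collagen chaperone of the endoplasmic reticulum, went from 2152 and 2068 to 944 and 1076 CPM (-1.07 ± 0.15). P4ha1, a subunit of the enzyme that hydroxylates proline in collagen, was the 1 matrix gene that rose. It measured 181 and 247 CPM in NT2 and 381 and 631 CPM in the knockdown (1.23 ± 0.27, adjusted p = 0.00257). P4ha1 is a high-in-NT transcript, and its rise was not called without knockdown replicate 2 (0.80).

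The nidogen genes, whose products link laminin to type IV collagen, both fell, Nid2 from 1297 and 1127 to 211 and 210.3 CPM (-2.52 ± 0.18) and Nid1 with a change of -1.31. The laminin gene Lamb1 (-0.68 ± 0.17), the perlecan gene Hspg2 (-0.59 ± 0.11) and the type IV collagen gene Col4a1 (-0.72 ± 0.13) also fell. Col4a2, which encodes the partner chain of Col4a1, measured 1353 and 1250 CPM and 1104 and 1113 CPM (-0.23 ± 0.13, adjusted p = 0.174) and did not pass. Lamb1 was not called by DESeq2 (-0.69).

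Type VI collagen forms beaded filaments around cells. Col6a1 went from 1427 and 1635 to 592 and 668 CPM (-1.28 ± 0.14) and Col6a2 from 793 and 673 to 201 and 161 CPM (-2.0 ± 0.24). Col6a3 measured 323 and 316 CPM in NT2 and 361 and 606 CPM in the knockdown (0.57 ± 0.25, adjusted p = 0.0882), and the knockdown libraries were the higher pair. It did not pass in the fit used, and it passed as higher without knockdown replicate 1 (0.92) and when scaled on the transcripts outside the high-in-NT set (0.75).

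Genes of secreted proteins that modulate the matrix also fell. Sparc, a collagen-binding glycoprotein gene, went from 4321 and 4143 to 1034 and 1064 CPM (-2.01 ± 0.13). Thbs1, which encodes thrombospondin 1 and is a target of YAP and TGF-beta signalling, went from 1167 and 1134 to 181 and 223 CPM (-2.52 ± 0.20). Timp3, an inhibitor of matrix proteases, went from 3149 and 3037 to 853 and 854 CPM (-1.86 ± 0.13), and the fibulin gene Fbln2 stood at -1.23 ± 0.12. Thbs2 (-1.99 ± 0.23) and Emilin1 (-1.65 ± 0.51) are high-in-NT transcripts that fell. Emilin1 rested on 3 and 5 counts in the knockdown, 3.22-fold (95% exact interval 1.51 to 7.90) lower by counting error alone, and its call was lost without NT2 replicate 1 (-1.09) or knockdown replicate 1 (-1.18). Postn, the periostin gene, had 13 and 9 counts in NT2 and 2 and 2 in the knockdown (-1.57 ± 0.66, adjusted p = 0.0738) and did not pass.

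**Figure D1:**
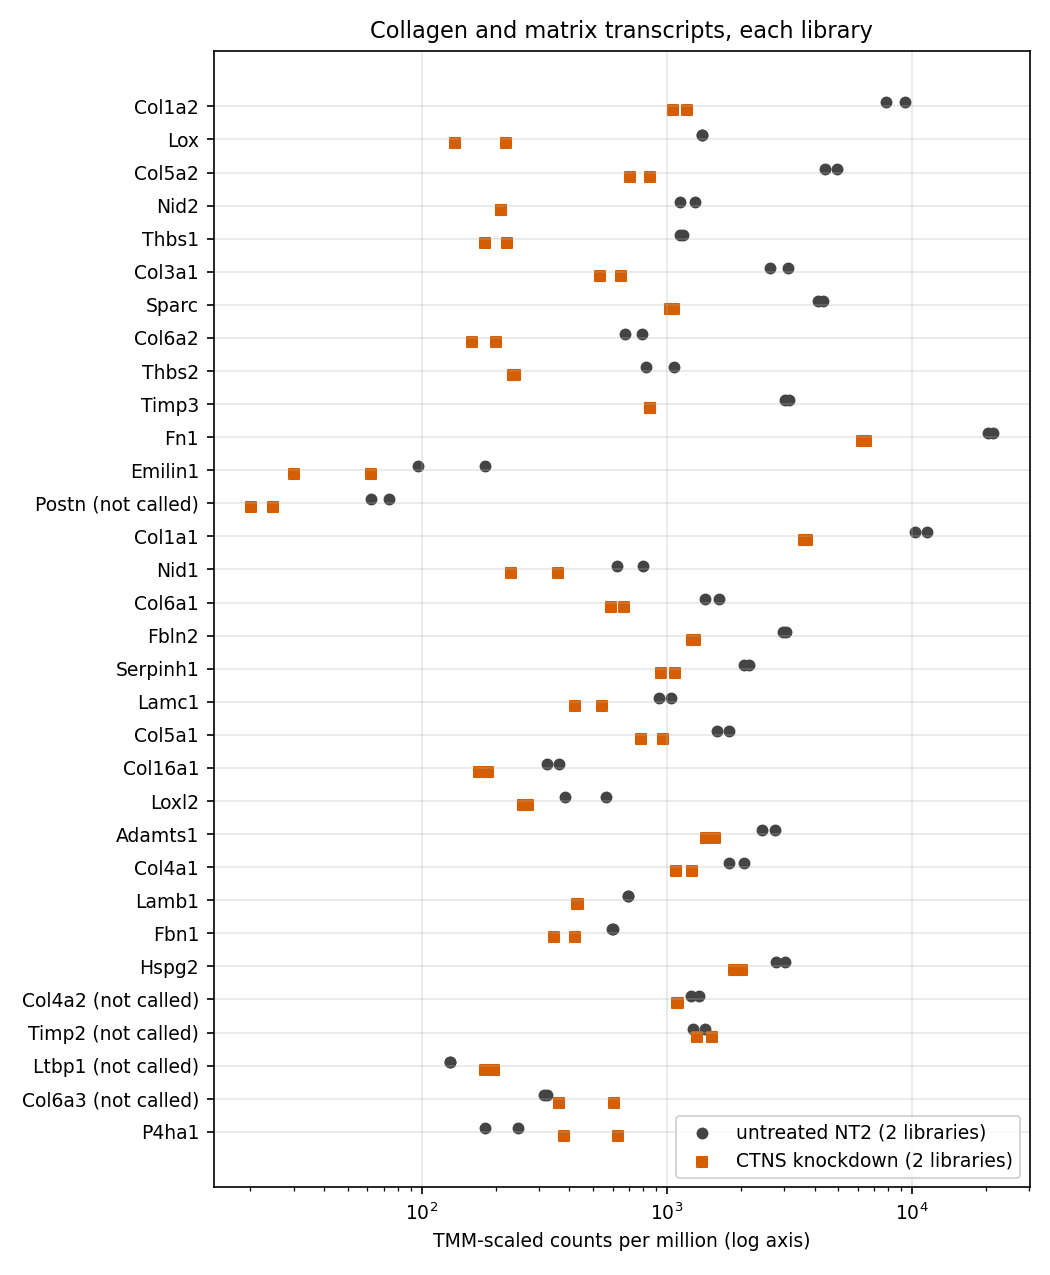
TMM-scaled CPM (log axis) of the 32 measured collagen and matrix transcripts, ordered by fold change, with 1 point per library for NT2 (circles) and CTNS knockdown (squares). For the 26 genes that fell the squares lie to the left of the circles, and P4ha1 at the bottom is the 1 gene that rose.

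The labelled cell type was checked on 14 fibroblast markers, of which 8 are listed: Col1a1, Col1a2, Col3a1, Vim, Fn1, Sparc, Fbn1 and S100a4. In NT2 Fn1, Sparc, Col1a1, Col1a2 and Vim were among the 44 most abundant transcripts per kilobase. Col3a1 ranked 136, S100a4 ranked 205 and Fbn1 ranked 865 by the same measure. All 8 markers fell, with a median of -1.86, beside 20.9% of all transcripts that fell. Col1a1, Col1a2, Col3a1, Fn1, Sparc and Fbn1 are also on the matrix list and Vim is on the contractile list. The fall of the markers is therefore not separate from the results of those lists. Vim, the intermediate filament gene of mesenchymal cells, went from 3273 and 2996 to 1887 and 1893 CPM (-0.73 ± 0.11). S100a4, a calcium-binding protein gene, had 35 and 20 counts in NT2 and 4 and 2 in the knockdown, 5.13-fold (95% exact interval 2.21 to 14.6) lower. Genes from the marker lists of other cell types were few. The endothelial and the neuronal and glial lists had no listed member. The other lists gave 6: the epithelial Cdh1, the pancreatic Ctrb1, the muscle genes Ttn and Srpk3, the renal Cubn, and Pglyrp3 from the immune list. Whether Pglyrp3 marks immune cells was not tested. All 6 are high-in-NT transcripts, a set of which 49.1% rose, and all 6 rose. The smallest count of any listed transcript in any of the 14 libraries was 1, NT included. A thinly counted marker could therefore be listed only if it was detected in NT. For that reason neither the listing of these markers nor their high-in-NT membership can be read as a sign of other cells. The summed muscle level went from 249 and 344 CPM to 934 and 878, and Cdh1 rested on 1 and 5 counts in NT2 and 12 and 6 in the knockdown and lost its call without NT2 replicate 1 (1.5) or knockdown replicate 1 (1.93). Whether other cells contribute to the fall of fibroblast genes was not tested.

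Contractile, adhesion and YAP target genes fell more often than they rose, beside 20.9% of all transcripts that fell and 19.7% that rose. Of 25 measured, 14 fell, 2 rose and 9 did not pass, with a median of -0.43; with all 14 libraries in the fit 8 fell, and with the pooled control 0. Vcl, which encodes the focal adhesion protein vinculin, went from 1716 and 1649 to 723 and 569 CPM (-1.37 ± 0.15, adjusted p = 1.07e-05). The cytoplasmic actin genes Actb (8619 and 7888 to 4818 and 4949 CPM; -0.76 ± 0.094) and Actg1 (-0.89 ± 0.11) fell, as did the smooth muscle actin gene Acta2 (1127 and 983 to 532 and 519.6 CPM; -1.01 ± 0.16). The actin-binding genes Tagln (-1.43 ± 0.28), Tpm1 (-0.98 ± 0.13) and Zyx (-0.81 ± 0.14) and the YAP target Amotl2 (-0.79 ± 0.16) fell too. Plec, a plakin gene whose product crosslinks the cytoskeleton, was among the 2 that rose (2673 and 2625 to 4407 and 4862 CPM; 0.81 ± 0.10). With all 14 libraries in the fit, the calls of Actb (-0.67), Actg1 (-0.81), Amotl2 (-0.70) and Vim (-0.64) were lost.

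**Figure D2:**
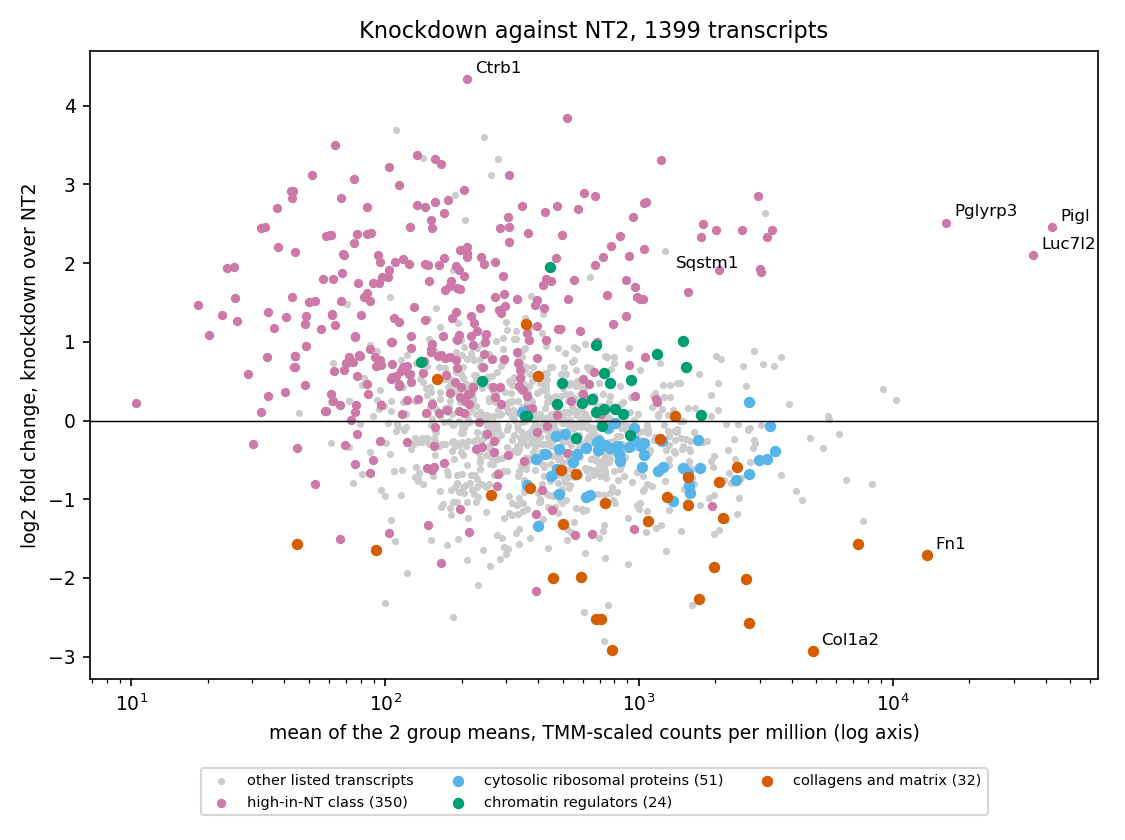
Log2 fold change of the knockdown over NT2 against mean level (TMM-scaled CPM, log axis) for all 1399 transcripts, 1 point each, with the high-in-NT transcripts and 3 gene lists coloured. Most matrix genes lie below 0, most ribosomal protein genes lie slightly below it, and Luc7l2, Pigl and Pglyrp3 stand apart at the right.

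Sqstm1 was among the 10 largest rises outside the high-in-NT set, counting transcripts with a mean of at least 20 counts in the higher group. It encodes p62, the receptor that carries ubiquitinated cargo into autophagosomes and is itself degraded by autophagy. It measured 527 and 399 CPM in NT2 and 2028 and 2128 CPM in the knockdown, a change of 2.15 ± 0.14 (adjusted p = 1.18e-07), and passed in every alternative run, the pooled control included. Cysteamine libraries stood between the groups at 1099 and 1012 CPM. Rescue libraries stood at 1451 and 1499 CPM, -0.49 ± 0.14 relative to the knockdown (adjusted p = 0.0606), which did not pass.

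Of 6 lysosome and autophagy genes measured, Sqstm1 rose, Ctsl fell and 4 did not pass. Over all transcripts 40.6% were called, 19.7% higher and 20.9% lower. Ctsl, the gene of the lysosomal protease cathepsin L, went from 583 and 543 to 392 and 259.8 CPM (-0.77 ± 0.20) and lost its call without NT2 replicate 1 (-0.71) or knockdown replicate 2 (-0.58). Lamp1, a major protein of the lysosomal membrane, measured 1925 and 2096 CPM and 1516 and 1868 CPM (-0.25 ± 0.13, adjusted p = 0.135). It did not pass, and it passed as lower without knockdown replicate 2 (-0.45).

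A few heat shock chaperones changed. Of 13 measured, 3 rose, 1 fell and 9 did not pass, and the median was 0.016. The share that rose was near the 19.7% of all transcripts, and the share called in either direction lay below 40.6%. Hsp90aa1, the stress-inducible cytosolic Hsp90 gene, went from 1976 and 2020 to 3564 and 3823 CPM (0.88 ± 0.10, adjusted p = 1.59e-05). Hsph1, a partner of Hsp70 whose upstream window is printed above, went from 589 and 666 to 1034 and 1348 CPM (0.92 ± 0.16). The constitutive Hsp90ab1 rose by less (0.27 ± 0.081), and its call was lost without NT2 replicate 1 (0.21) or knockdown replicate 2 (0.16). Cct6a, a subunit of the ring that folds actin and tubulin, fell (-0.56 ± 0.13), and Hspa8, the constitutive Hsp70 gene, measured 5555 and 5627 CPM and 5632 and 5679 CPM (0.016 ± 0.088).

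Among 9 chaperones of the endoplasmic reticulum 3 fell, 0 rose and 6 did not pass, with a median of -0.32. Of all transcripts 20.9% fell and 19.7% rose. The number that fell was 1 without knockdown replicate 1, 5 without knockdown replicate 2, 1 with all 14 libraries, 6 by library total and 0 with the pooled control. P4hb, the disulfide isomerase that is also a subunit of collagen prolyl hydroxylase, went from 2662 and 2755 to 1496 and 1732 CPM (-0.75 ± 0.12). Calr, the calcium-binding lectin chaperone gene, went from 2718 and 2851 to 1476 and 2041 CPM (-0.67 ± 0.15) and lost its call without knockdown replicate 1 (-0.45). Pdia4 (-0.63 ± 0.18) lost its call without NT2 replicate 2 (-0.57) or knockdown replicate 1 (-0.65). Hspa5, which encodes BiP, the master chaperone induced by the unfolded protein response, measured 3590 and 3628 CPM and 4256 and 4095 CPM (0.21 ± 0.100, adjusted p = 0.106). It did not pass here, and it passed as higher when scaled on the transcripts outside the high-in-NT set (0.39).

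Most amino acid genes did not pass. Of 4 amino acid transporters 1 fell and 0 rose, of 5 synthesis and one-carbon enzymes 2 fell and 0 rose, and of 8 aminoacyl-tRNA synthetases 1 rose and 1 fell. Over all transcripts 19.7% rose and 20.9% fell. Slc38a2, which imports neutral amino acids, went from 759 and 605 to 371 and 408 CPM (-0.82 ± 0.18). Slc3a2, the heavy chain that partners the cystine and leucine exchangers, measured 176 and 234 CPM and 311 and 285 CPM (0.56 ± 0.27, adjusted p = 0.112). It did not pass, and it passed as higher when scaled on the transcripts outside the high-in-NT set (0.74). Aldh18a1, the first enzyme of proline synthesis from glutamate, went from 521 and 474 to 221 and 235 CPM (-1.13 ± 0.23).

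Of the synthetase genes, which charge transfer RNAs, Vars fell from 1014 and 989 to 432 and 705 CPM (-0.85 ± 0.19) and Sars rose from 464 and 357 to 823 and 569 CPM (0.77 ± 0.23). Both calls were lost without knockdown replicate 1 (Vars -0.51, Sars 0.46), and that of Sars also without NT2 replicate 2 (0.60). Atf4, the transcription factor of the amino acid stress response, went from 889 and 866 to 703 and 581 CPM (-0.44 ± 0.15, adjusted p = 0.0273). That call was lost in 10 of 16 alternatives, among them the fits without NT2 replicate 1 (-0.42), NT2 replicate 2 (-0.46) and knockdown replicate 2 (-0.37).

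None of 3 redox genes and 1 of 4 iron and ferroptosis genes passed, beside 40.6% of all transcripts. By edgeR's unadjusted p 1 of the 3 redox genes, Sod1, was below 0.05, and DESeq2 and limma called 0 of the 3. One redox gene was called higher with upper quartile scaling, with scaling on the transcripts outside the high-in-NT set, with the high-in-NT transcripts left out and among transcripts averaging at least 20 counts. The iron list gene that passed was Vdac2, a mitochondrial channel gene (-0.62 ± 0.22), whose call was lost without NT2 replicate 1 (-0.61) or without NT2 replicate 2 (-0.62) or without knockdown replicate 1 (-0.67) or without knockdown replicate 2 (-0.63). Prdx1, a peroxiredoxin gene, measured 430.4 and 447 CPM in NT2 and 381 and 272 CPM in the knockdown (-0.40 ± 0.21, adjusted p = 0.149), and Abcc1, an exporter of glutathione conjugates, 187 and 144 CPM and 271 and 210.3 CPM (0.54 ± 0.28). Fth1, the ferritin heavy chain gene, measured 1688 and 1271 CPM and 1717 and 1584 CPM (0.15 ± 0.16), and Gpx4, the selenoenzyme that reduces lipid peroxides, 283 and 268 CPM and 291 and 235 CPM (-0.058 ± 0.25). For Fth1 and Gpx4 the libraries of the 2 groups overlapped, and the sign changed in some alternatives. The endocytic receptor gene Lrp1, on the list of growth signalling genes, fell from 1784 and 1697 to 693 and 693 CPM (-1.33 ± 0.13, adjusted p = 4.43e-06), and the desaturase gene Scd2 fell from 3398 and 2824 to 1325 and 1262 CPM (-1.27 ± 0.14).

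Ribosomal protein genes that changed were all lower in the fit used. Of 51 cytosolic ribosomal protein genes 25 fell, 0 rose and 26 did not pass, with a median of -0.43. The number that fell depended on the fit: 9 with all 14 libraries, 14 by DESeq2, 17 when scaled on the transcripts outside the high-in-NT set, 33 when scaled by library total, 17 without knockdown replicate 1, and 0 with the pooled control. Rpl12 went from 1818 and 1835 to 813 and 989.7 CPM (-1.03 ± 0.14) and Rpl36a from 555 and 598 to 231 and 223 CPM (-1.34 ± 0.19). Many ribosomal protein genes have processed pseudogenes of near-identical sequence, and how shared reads were assigned is not given in the sources used here. Eef1a1, which delivers charged transfer RNA to the ribosome, went from 10329 and 10670 to 5983 and 6025 CPM (-0.81 ± 0.083). It was one of 6 of 18 initiation and elongation factor genes that fell, along with Tpt1 (-0.85 ± 0.12) and the helicase gene Eif4a1 (-0.59 ± 0.12), whereas 4 rose, among them Eif6, a factor that keeps the ribosomal subunits apart (0.86 ± 0.19). The factor counts depended on the fit: 1 fell and 3 rose with all 14 libraries, 3 fell and 0 rose by DESeq2, 3 fell and 1 rose without NT2 replicate 1, 11 fell and 1 rose by library total, and 0 changed with the pooled control. With all 14 libraries in the fit the calls of Eef1a1 (-0.72) and Eif4a1 (-0.51) were lost. Beside the counts of these lists, 20.9% of all transcripts fell and 19.7% rose in the fit used.

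Chromatin regulators were the list with the most members that rose, beside 19.7% of all transcripts that rose. Of 24 measured 8 rose, 0 fell and 16 did not pass, with a median of 0.25; 5 to 10 rose in every alternative run except the pooled control, where 2 did. Kmt2d, a histone H3 lysine methyltransferase gene of enhancers, went from 957 and 1031 to 1978 and 2017 CPM (1.01 ± 0.12, adjusted p = 2.14e-05). The BET bromodomain gene Brd2 went from 748 and 948 to 1546 and 1472 CPM (0.84 ± 0.14). Kmt2a (0.96 ± 0.21) rose too and lost its call without knockdown replicate 2 (0.61). Bcor, a Polycomb corepressor gene (187 and 179 to 763 and 656 CPM; 1.96 ± 0.20), and the remodeller gene Smarca5 (0.69 ± 0.13) rose as well and are high-in-NT transcripts. With the high-in-NT transcripts left out, 8 of the other 22 rose. That fit rescaled the libraries on the remaining 1049 transcripts, of which 177 rose, against 104 of them (9.91%) in the fit used. The 8 of the fit used include Bcor and Smarca5, so the 2 counts are not of the same genes.

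Transcript length moved with the fold change. Outside the high-in-NT set the median fold change was -0.38 for 97 transcripts of up to 1500 nt, -0.29 for 217 up to 3000 nt, -0.15 for 294 up to 5000 nt, -0.081 for 263 up to 8000 nt and 0.15 for 170 longer ones. The Spearman correlation across these 1041 transcripts, which share the same libraries, was 0.255. Ribosomal protein transcripts are short, with a median of 975 nt, and the 55 other transcripts of up to 1500 nt had a median fold change of -0.32 beside -0.43. Chromatin regulator transcripts are long, with a median of 8348 nt, and the 157 other transcripts over 8000 nt had a median of 0.11 beside 0.25. Matrix transcripts had a median length of 5456 nt, and the 537 other transcripts over 3000 and up to 8000 nt had a median of -0.085 beside -1.26. The part of length in the ribosomal and chromatin results was not tested.

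**Figure D3:**
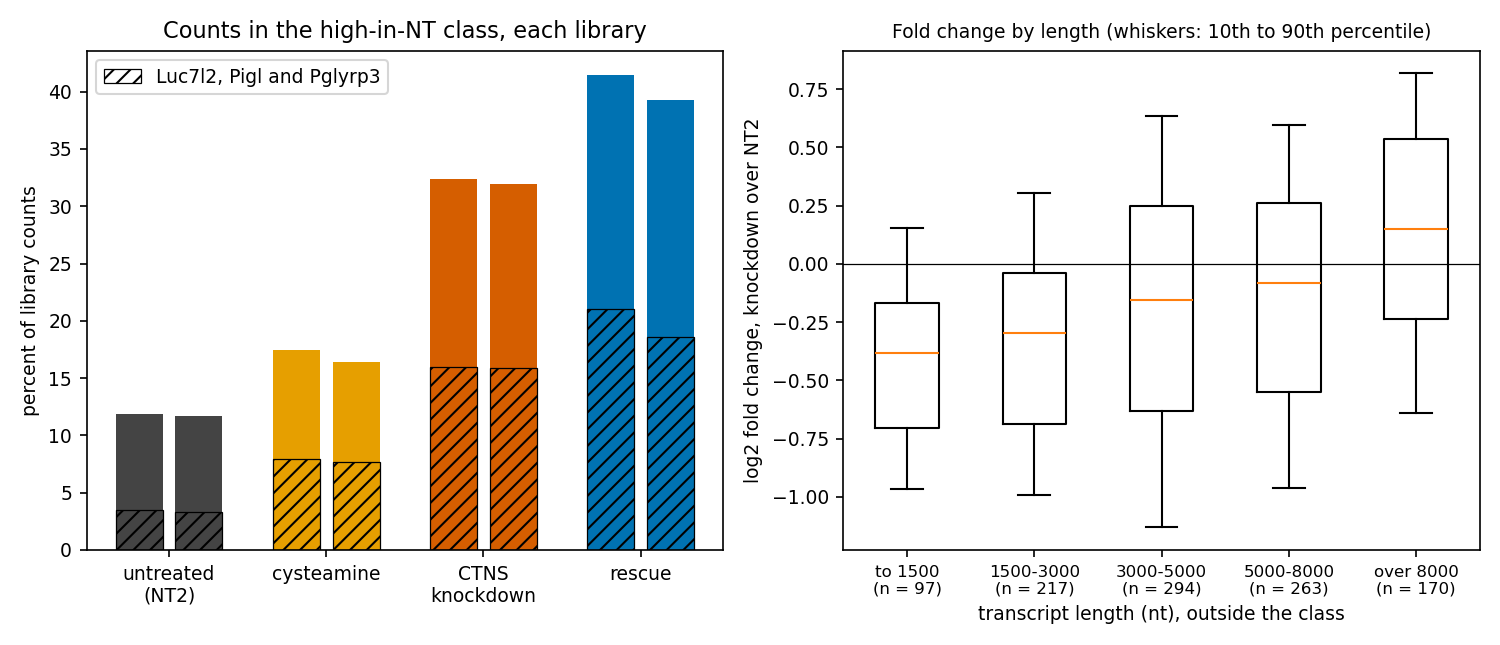
Left, the percent of each library's counts in the high-in-NT transcripts (bars, 2 libraries per group) and in Luc7l2, Pigl and Pglyrp3 (hatched); the share goes from 11.7 to 11.9% in NT2 to 31.9 to 32.3% in the knockdown. Right, log2 fold change of the knockdown over NT2 by transcript length outside that set, with boxes for quartiles, an orange line for the median and whiskers from the 10th to the 90th percentile; the median goes from -0.38 to 0.15.

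Of 9 G1/S and replication genes 3 fell and 1 rose, and of 16 G2 and mitosis genes 3 fell and 1 rose. Over both lists the share called lay below the 40.6% of all transcripts, and DESeq2 called 1 of the 16 G2 and mitosis genes lower and 0 higher. Cdk4, the kinase that drives entry into S phase, went from 668 and 659.6 to 251 and 346 CPM (-1.17 ± 0.20, adjusted p = 0.000448), and Rrm1, the large subunit of ribonucleotide reductase, from 1195 and 983 to 522 and 532 CPM (-1.05 ± 0.18). Ect2, the exchange factor that starts cytokinesis, went from 306 and 433 to 110.4 and 124 CPM (-1.64 ± 0.30), and its partner Racgap1 changed by -0.94. The other genes that fell were Pcna, the sliding clamp gene (-0.69 ± 0.26; call lost without NT2 replicate 1 (-0.62) or without NT2 replicate 2 (-0.75) or without knockdown replicate 1 (-0.65) or without knockdown replicate 2 (-0.77)), and the condensin gene Smc2 (-0.84 ± 0.31; call lost without NT2 replicate 1 (-0.92) or without NT2 replicate 2 (-0.76) or without knockdown replicate 1 (-0.57)). The replicative polymerase gene Pole, a high-in-NT transcript (1.2 ± 0.22), and the kinetochore gene Cenpf (0.74 ± 0.15) rose.

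Of 22 splicing genes 5 rose and 6 fell, near the 19.7% and 20.9% of all transcripts. These counts were 4 and 1 with all 14 libraries, 2 and 1 by DESeq2, 3 and 3 without NT2 replicate 1 or knockdown replicate 1, and 0 and 0 with the pooled control. Luc7l2, a U1 snRNP-associated factor gene, rose from 14169 and 12848 to 59960 and 55684 CPM (2.10 ± 0.077). It is a high-in-NT transcript, and with Pigl (13608 and 12553 to 69998 and 73314 CPM) and Pglyrp3 (4961 and 4658 to 27977 and 27056 CPM) it took 3.49% and 3.29% of NT2 counts and 16.0% and 15.8% of knockdown counts. Outside that set Srrm2, a spliceosome scaffold gene (0.69 ± 0.10), and Son (0.48 ± 0.13) rose and Hnrnpk (-0.70 ± 0.13) and Prpf8 (-0.52 ± 0.11) fell. Son lost its call without NT2 replicate 1 (0.41) or knockdown replicate 2 (0.38). With the pooled control the fold change of Luc7l2 turned to -2.22.

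Of the energy genes a minority changed, beside 40.6% of all transcripts (20.9% lower and 19.7% higher). Of 5 glycolytic genes 2 fell, led by Gapdh (1382 and 1354 to 693 and 557 CPM; -1.12 ± 0.14); of 7 nuclear respiratory chain genes 3 fell, led by Atp5a1 (-0.91 ± 0.16); of 7 mitochondrially encoded genes mt-Atp6 alone fell (-0.69 ± 0.13). The other glycolytic gene that fell was the enolase gene Eno1 (-0.79 ± 0.20; call lost without knockdown replicate 1 (-0.70)). Of 11 proteasome genes Psmc3 rose (0.53 ± 0.17; call lost without NT2 replicate 1 (0.53) or without NT2 replicate 2 (0.54) or without knockdown replicate 1 (0.51) or without knockdown replicate 2 (0.50)) and 0 fell. In the nucleolus list Ncl, the nucleolin gene, rose from 2401 and 2260 to 3724 and 3934 CPM (0.71 ± 0.10), Npm1, the nucleophosmin gene, fell (-0.49 ± 0.14; call lost without NT2 replicate 2 (-0.40) or without knockdown replicate 1 (-0.35)), and 6 of 8 members did not pass.

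Rnf213, an interferon-inducible ubiquitin ligase gene linked to moyamoya disease, fell from 3075 and 2886 to 1144 and 1126 CPM (-1.39 ± 0.12, adjusted p = 1.02e-06). Cysteamine libraries stood at 974 and 1068 CPM and rescue libraries at 4546 and 4921 CPM, above both untreated libraries. The 2 other interferon-stimulated genes measured, Trim25 (1.11 ± 0.23) and the class I gene H2-D1 (1.28 ± 0.34), rose; both are high-in-NT transcripts, and H2-D1 lost its call without knockdown replicate 1 (1.14). Csf1, the macrophage growth factor gene, fell from 589 and 584 to 392 and 198 CPM (-0.95 ± 0.22).

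**Figure D4:**
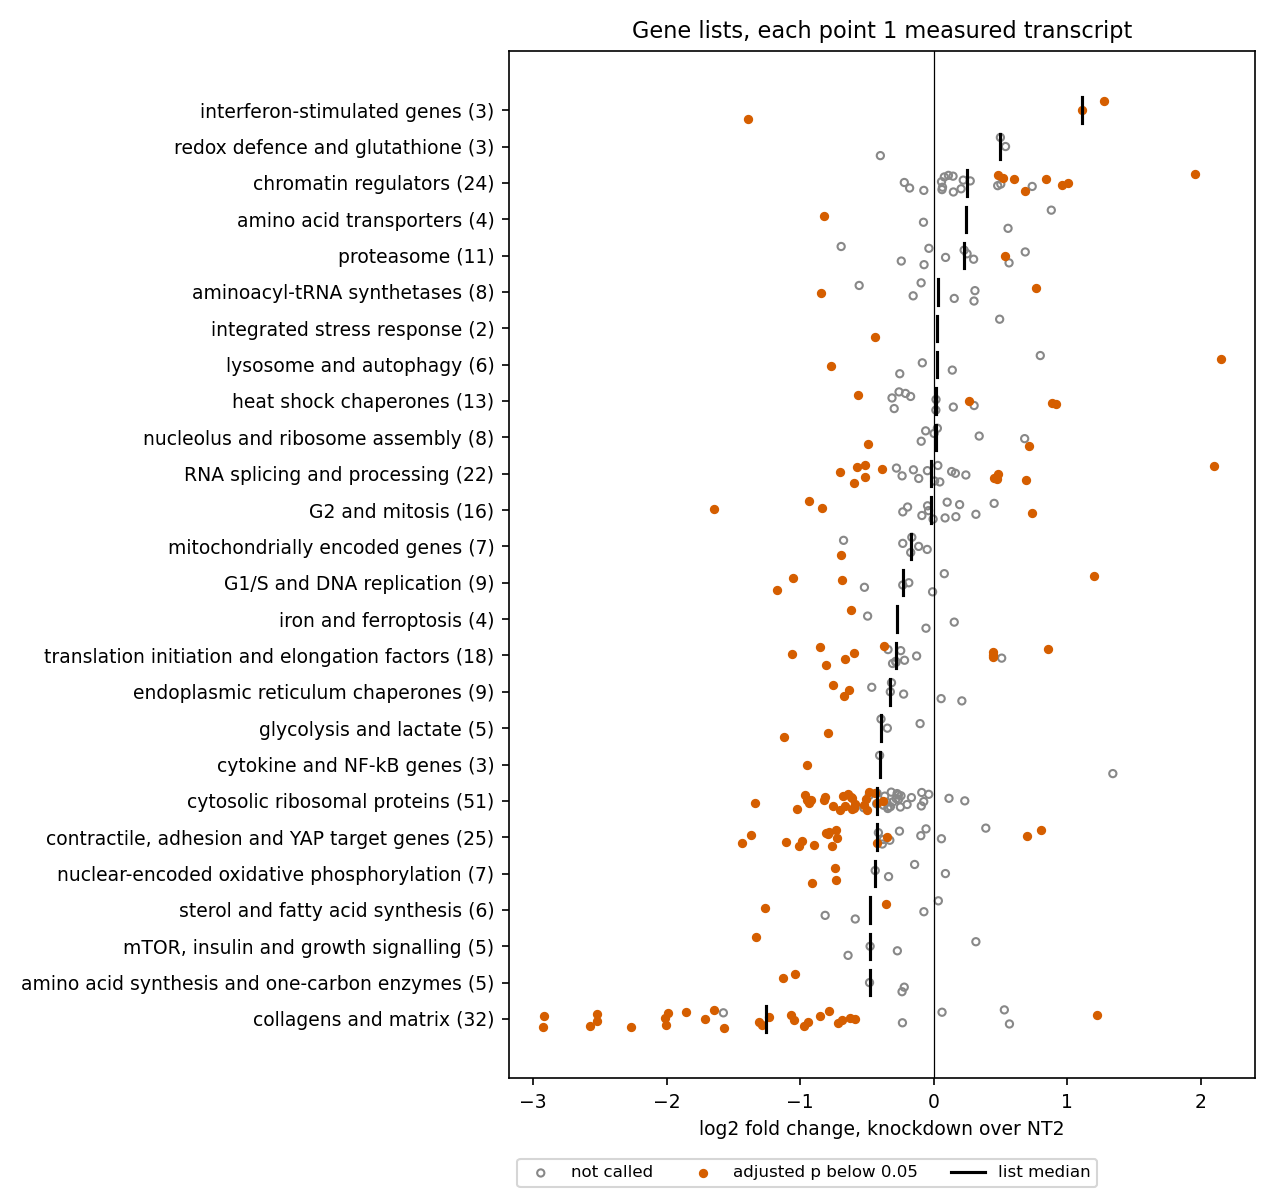
Log2 fold change of the knockdown over NT2 for each measured member of the 26 gene lists with at least 1 listed member, filled where the adjusted p was below 0.05, with the list median as a black bar and the number measured in parentheses. The collagen and matrix list lies lowest, at a median of -1.26, and the interferon list at the top holds 3 genes.

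The 10 largest falls outside the high-in-NT set included those of Lox, Lrrn4 (-2.80 ± 0.23), Col5a2, Nid2, Thbs1, Flt4, Smpd3, Slc18a2 and S100a4. Lrrn4, a leucine-rich membrane protein gene, went from 1353 and 1189 to 211 and 148 CPM, and Slc18a2, the vesicular monoamine transporter gene, from 2916 and 2467 to 522 and 544 CPM (-2.34 ± 0.15). Smpd3, a neutral sphingomyelinase gene, also fell (-2.44 ± 0.21), and Flt4, a VEGF receptor gene, went from 50 and 51 counts to 8 and 2, 5.66-fold (95% exact interval 2.95 to 12.2) lower. Inside the set the axon guidance genes Slit3 (-2.17 ± 0.27) and Sema3d (-1.82 ± 0.54) were among the 5 lowest. Sema3d lost its call without NT2 replicate 1 (-1.54) or knockdown replicate 1 (-1.06).

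The other 9 of the 10 largest rises outside the set, chosen with the same count minimum, were of varied function. Acox3, a peroxisomal oxidase gene, went from 34.0 and 68.7 to 542 and 470.1 CPM (3.32 ± 0.37), with 148 and 112 CPM under cysteamine and 963 and 603 CPM in the rescue. Tenm4, a teneurin gene (3.11 ± 0.29), stood at 45.3 and 61.8, 133 and 161, 452 and 482 and 770.5 and 733 CPM in the same 4 groups, NT2, cysteamine, knockdown and rescue. Rapgef4 went from 4 and 4 counts to 28 and 19, 10.5-fold (95% exact interval 4.91 to 25.7) higher. Abca16 (2.64 ± 0.26), Ubxn8 (1.91 ± 0.32) and the nuclear matrix gene Sltm (1.82 ± 0.21) rose too. In the same order of groups their mean CPM were 884, 2222, 5413 and 7671 for Abca16, 76.2, 166, 294 and 470 for Ubxn8, and 285, 394, 998 and 1484 for Sltm. The high-in-NT share rose in that order too. With the pooled control Abca16 (0.89) and Ubxn8 (1.69) lost their calls. Aatk (3.61 ± 1.27), D130043K22Rik (2.86 ± 0.87) and Igsf10 (2.54 ± 0.68) differed widely between replicates. Their values fell to 1.47 for Aatk without knockdown replicate 2, and to 0.88 for D130043K22Rik and 1.48 for Igsf10 without knockdown replicate 1, and the calls were lost. They were also lost for Aatk without NT2 replicate 1 (2.78) or 2 (5.13), for D130043K22Rik without NT2 replicate 1 (2.62) or 2 (3.08), and for Igsf10 without NT2 replicate 2 (1.99).

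Inside the high-in-NT set the 5 largest rises were those of Ctrb1, Lca5l, Nme9, Col28a1 and Cbfa2t3. Ctrb1, which encodes the digestive proenzyme chymotrypsinogen B1, went from 3 and 3 counts to 33 and 38, 21.1-fold (95% exact interval 9.24 to 59.5) higher. Col28a1, a collagen gene outside the matrix list, went from 6 and 3 counts to 29 and 23, 10.3-fold (95% exact interval 5.04 to 23.8) higher. Nme9 was 10.7-fold (95% exact interval 4.77 to 28.3) higher. Lca5l rose (3.84 ± 0.51), and Cbfa2t3 (3.31 ± 0.82) lost its call without NT2 replicate 1 (2.55) or knockdown replicate 2 (1.85). These counting intervals cover counting error only. The 2 libraries of each group were pooled for them, so the spread between libraries is left out. The reads also carry no stated molecular identifiers.

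Set against cysteamine, the drug that depletes lysosomal cystine, the knockdown differed in 529 transcripts (37.8%), 234 higher (16.7%) and 295 lower (21.1%). This comparison and the one with NT2 share the knockdown libraries. Of the ribosomal protein genes 46 of 51 were lower in the knockdown than with cysteamine, and of the matrix genes 19 of 32 were lower and 2 higher. Eef1a1 differed by -0.94 ± 0.083 (adjusted p = 4.40e-06) and Fn1 by -0.84 ± 0.078. Endoplasmic reticulum chaperones stood the other way, with 5 of 9 higher and 0 lower, led by Hspa5 (1630 and 1521 CPM with cysteamine; 1.41 ± 0.11, adjusted p = 1.99e-06). Col6a1 differed by -0.073 ± 0.16 (adjusted p = 0.746) and Rnf213 by 0.15 ± 0.13 (adjusted p = 0.381), which did not pass. Chromatin regulators were higher in 10 of 24 and lower in 0, and heat shock chaperones were lower in 9 of 13 and higher in 0.

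The rescue group received the same hairpin with a CTNS plasmid, and against the knockdown 58 transcripts differed (4.15%), 41 higher (2.93%) and 17 lower (1.22%). Of the 32 matrix genes 11 were higher in the rescue and 0 lower. Col1a1 stood at 8347 and 8326 CPM in the rescue libraries, 1.18 ± 0.095 above the knockdown (adjusted p = 8.55e-06), and Col1a2 at 4045 and 2933 CPM (1.63 ± 0.16). Thbs1 (1.70 ± 0.25), Col6a1 (1.09 ± 0.16), Col6a2 (1.35 ± 0.29), Col3a1 (0.91 ± 0.17), Timp3 (0.85 ± 0.15) and Sparc (0.70 ± 0.15) were also higher. Postn, at 10 and 16 counts in the rescue, differed by 3.03 ± 0.61 (adjusted p = 0.0138). In both rescue libraries Col1a1, Col1a2 and Thbs1 lay above both knockdown libraries and below both NT2 libraries. Lox (0.61 ± 0.28, adjusted p = 0.293) and Col5a2 (0.44 ± 0.16, adjusted p = 0.145) did not pass.

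Outside the matrix, Rnf213 had the smallest p of all transcripts between rescue and knockdown (2.06 ± 0.12, adjusted p = 3.83e-07). Acta2 (1.23 ± 0.17), Csf1 (1.22 ± 0.25) and Lrp1 (0.80 ± 0.15) were higher in the rescue, and Hsp90aa1 (2055 and 2118 CPM; -0.82 ± 0.11), Hsp90ab1 (-0.45 ± 0.083) and Hspa5 (-0.64 ± 0.11) were lower. Ribosomal protein genes had 0 higher and 1 lower of 51. Cdk4 (0.033 ± 0.27, adjusted p = 0.972) and Kmt2d (-0.10 ± 0.12, adjusted p = 0.716) did not pass. The count of 58 fell to 30 without knockdown replicate 1, 21 without knockdown replicate 2 and 32 without rescue replicate 1, and was 45 without rescue replicate 2. The high-in-NT share was higher in the rescue libraries than in the knockdown libraries, and its part in these differences was not tested.

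**Figure D5:**
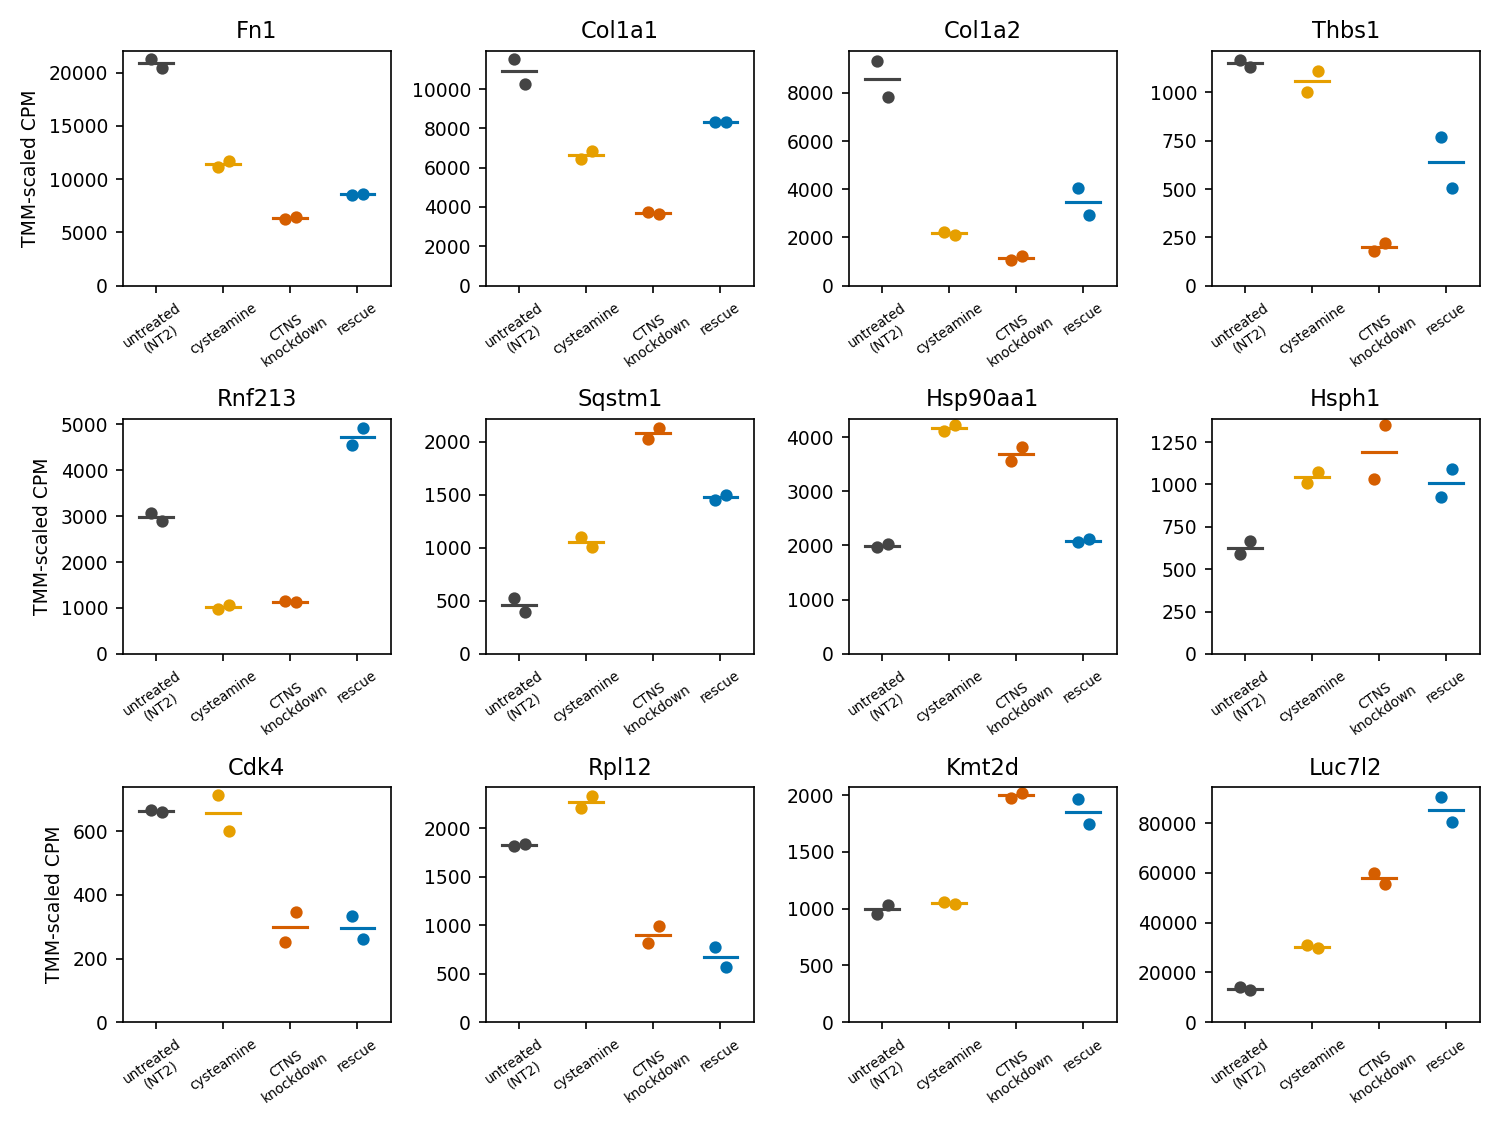
TMM-scaled CPM (linear axis from 0) of 12 genes in NT2, cysteamine, CTNS knockdown and rescue, with 1 point per library and a line at the mean of 2. Col1a1, Col1a2, Thbs1 and Rnf213 are low in the knockdown and higher in the rescue, Sqstm1 is highest in the knockdown, and Luc7l2 is highest in the rescue.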

How the data were processed

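Polyadenylated RNA of MEF cells was sequenced in 14 libraries of 7 groups, 2 libraries a group. The authors deposited whole-number counts per Ensembl transcript, not normalized; the tables are named as CPM, but their totals differ between libraries. Per the submitters' processing notes, Bowtie 1.2.3, STAR 2.7.10a, cutadapt 2.8 and bcl2fastq 2.20.0.422 were used with the assembly GRCm39; for the counter, its strand setting and the annotation the sources used here say nothing. Transcripts were named through GENCODE M21.

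edgeR 4.0.16 (R 4.3.3) fitted the NT2, cysteamine, CTNS knockdown and rescue libraries, 8 in all, with TMM scaling and 4 group means (4 residual degrees of freedom). The spread was moderated across transcripts, with a median prior of 9.115 degrees of freedom. These libraries were fitted apart from the other 6, whose replicates varied more (common dispersion 0.00887 for the 8 and 0.0298 for all 14). Every listed transcript was tested. On simulated counts of 1399 transcripts for the knockdown against NT2, 74% and 66% of 50 transcripts changed by 1 and -1 on the log2 scale were called, 100% and 92% for 2 and -2, and 0.417% of unchanged ones. The simulation gave all transcripts the same dispersion and as many rises as falls, without the shift in high-in-NT share. These rates therefore may not hold for the measured libraries. Alternatives were DESeq2 1.42.0, limma 3.58.1, other scalings, other sets of libraries or transcripts, a replicate block, each library left out, and NT pooled with NT2. Counting intervals are exact (Clopper-Pearson, 95%) on the pooled counts of the 2 libraries of each group.

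Members and gene lists were chosen with earlier results of these data known. Named genes were those with the 10 highest and 10 lowest fold changes outside the high-in-NT transcripts and the 5 highest and 5 lowest inside them (called, libraries not overlapping, mean of at least 20 counts in the higher group), and, from each list, at most 4 genes, those of lowest p. Sparc, Col3a1, Col4a1, Col4a2, Col6a1, Col6a2, Col6a3, Nid1, Lamb1, Hspg2, Fbln2, Timp3, P4ha1, Serpinh1, Postn, Acta2, Vim, Tagln, Tpm1, Zyx, Amotl2, Hspa5, Hspa8, Kmt2a, Son, Pigl, Pglyrp3 and the markers of other cells were added after their values were seen. Some genes that the rule names are not reported here.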

Additional observations from a re-analysis of the deposited data

How the results depend on the processing

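Of 134 genes followed through 16 alternatives of the comparison with NT2, 121 were called; 111 of these kept their direction in every alternative, 20 kept direction and call in every one, and 75 in every one but the pooled control. With DESeq2 the comparison with NT2 gave 318 calls (164 higher, 154 lower), that with cysteamine 245 and that of rescue with knockdown 23. With all 14 libraries the numbers were 431 (185 lower), 346 and 9. With the high-in-NT transcripts left out 177 were higher among 1049 tested. With NT and NT2 together as the control 45 were called, 15 higher and 30 lower, and these fold changes turned: Luc7l2 -2.22, Pigl -0.96, Pglyrp3 -2.96, Srpk3 -1.99, Cubn -2.99, Gpx4 0.20, Lamp1 0.38, Fasn 0.065, Trim25 -1.12, Psmc3 -0.37, Bcor -0.12, Smarca5 -1.15 and Col4a2 0.0025. Gpx4 also turned with all 14 libraries (0.026), upper quartile scaling (0.034), scaling outside the high-in-NT transcripts (0.12), those left out (0.13), a mean count of 20 or more (0.041) and without knockdown replicate 2 (0.027; -0.23 without replicate 1), Fth1 without NT2 replicate 2 (-0.030), and Hspa8 by library total (-0.075) and without knockdown replicate 2 (-0.038). The causes were not tested, apart from the fewer transcripts and libraries of some fits.

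Leaving out each library gave 421 to 459 calls against NT2, 342 to 379 against cysteamine (342 without cysteamine replicate 2) and 21 to 45 for the rescue. The labels number the replicates 1 and 2 in each group. They do not say that a number marks a shared culture or day. Deviations of same-numbered samples correlated by 0.129 between NT2 and knockdown, 0.087 between NT2 and cysteamine, 0.171 between NT2 and rescue, 0.276 between cysteamine and knockdown, 0.230 between cysteamine and rescue and 0.249 between knockdown and rescue; 5 of the 6 exceed 0.1, and 2 numbers are too few to settle a pairing. With a replicate block the counts were 660, 601 and 152, and Postn (-1.58), Col6a3 (0.56), Hspa5 (0.21) and Aars (0.30) gained a call. Depth limits the thinly counted genes: the median transcript had 52 to 61 counts in NT2 and 29 to 35 in the knockdown.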
